A study of Mus musculus with 3 samples.

Results

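Large annotated exonic parts are stretches of 400 nt or more of known exons in muscle transcripts, and 697 of them in 247 genes were covered well enough to be described here. An exonic part is the piece of a gene between neighbouring exon boundaries, so a long exon with several alternative ends is divided into several parts. The deposited exon table held 27271 parts of 686 genes, of which 25827 were annotated, and 2458 of these had 400 nt or more. The members were chosen by length and coverage, as the large annotated parts that at least 20 consensus reads covered in 1 or more libraries, outside Ttn, Neb and Nrap. Another 29 large covered parts of Ttn, Neb or Nrap were left out by that rule.

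The study read long cDNAs of 3 muscles with PacBio Iso-Seq, in which a read spans a whole transcript and so shows which exons occur together in 1 molecule. The libraries came from the apex of the heart, the extensor digitorum longus (EDL, a fast limb muscle) and the soleus (a slower limb muscle). All 3 came from male C57BL/6 wild-type mice of 8 weeks, with 1 library per tissue and no replicate, so every test below compares 2 libraries and not 2 tissues. The cDNAs had been selected for lengths of 5 to 10 kb, and each value refers to molecules in that range.

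Most vertebrate exons are short, and the splicing machinery recognises them as units across their length. Long exons fall into a few kinds. The last exon of a gene carries the stop codon and most of the 3′ untranslated region (UTR), and is often the longest. Some long internal exons encode whole protein domains, as in the giant repeat proteins of muscle. Other long annotated stretches are introns kept in unspliced or partly spliced transcripts, and alternative last exons that end a shorter form of the protein.

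The 3 libraries held 17459 to 19826 consensus reads in genes. The summed counts of 7 heart markers were 2437 reads in the cardiac library, 40 in EDL and 34 in soleus. The 5 skeletal muscle markers summed to 13, 855 and 511 reads in the same order, and the 4 slow fibre markers to 52, 18 and 456. Of the 456 in soleus, 433 were Myh7 reads. The 4 fast fibre markers summed to 48, 640 and 209. Markers of other cell types summed to 69, 51 and 46 reads for endothelium, 110, 71 and 67 for fibroblasts and matrix, 19, 26 and 22 for smooth muscle and pericytes, and 19, 16 and 15 for blood and immune cells. The endothelial and the fibroblast and matrix sums were thus highest in the cardiac library, but not every marker in them was. Col4a1 had 71, 39 and 35 reads and Col4a2 38, 22 and 18, while Fn1 had 1, 9 and 14. Col3a1 was at 0 and Col1a1 had 1 read, in EDL. Kdr had 36, 17 and 22 reads, Ptprb 22, 24 and 17 and Vwf 11, 10 and 7, with Pecam1 and Cdh5 at 0. The part of these cells in the differences between libraries was not tested. Both adipocyte markers and both nerve markers were at 0 in every library. The median member was covered by 66 full-length reads in the cardiac library, 83 in EDL and 77 in soleus.

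A share is the percentage of full-length reads covering a part that also hold it. Molecules without a long part could fall below the size selection. A share of a long part thus does not give its proportion among all molecules of the gene. A consensus read is the sequence made from a cluster of full-length reads, and full-length reads of the same cluster are not independent. Intervals beside shares are 95% exact Clopper-Pearson intervals. Those beside differences are 95% Newcombe intervals, and both cover counting error only.

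The junction sequences show how molecules with and without a part differ, for members that differed between libraries or divided the molecules of 1 library. They are from GENCODE M21 transcripts of build GRCm38, written 5′ to 3′ on the strand of the gene. Each has 15 bases on either side of the point where the part begins. Bases of the part are in capitals, and the second line of each pair is the junction of an annotated coding transcript that leaves it out.
Map4 part 16, held: ctgagccttgctcagGTTTCCCTTCCTCAC
Map4 part 16, left out: ctgagccttgctcaggagtatcccggcaag
Sptbn1 part 10, held: cagggatctccacggGTTAGTTACCGCTCT
Sptbn1 part 10, left out: cagggatctccacggatggcaggaaccatg
Synm part 6, held: gcacaggtggtggagGTAAGTGGAGACTTC
Synm part 6, left out: gcacaggtggtggagatggatctgagcgac
Dsp part 27, held: aatgagctggcaaagGTAAGAAACCACTAT
Dsp part 27, left out: aatgagctggcaaaggcatctaataggatc
Plec part 5, held: atggaagaggaggagCGGCTGGCTGAGCAA
Plec part 5, left out: atggaagaggaggagatgcagactgtgcag
Kif1b part 40, held: gagcagcagagactgGACGCGGATTCTGAT
Kif1b part 40, left out: gagcagcagagactggactacgagagtaaa
Srl part 10, held: tttcaggacaagcagAACTGCAAGTCTCTG
Srl part 10, left out: tttcaggacaagcagaggtggaggatgcga
In all 7 pairs the bases before the part are the same, and the lines differ only after the point where it begins. The parts of Sptbn1, Synm and Dsp adjoin the exon before them in the genome, so a molecule that holds them reads on past that exon's end. Those of Map4, Plec, Kif1b and Srl are joined to the preceding exon by splicing.

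Large parts were mostly held by nearly all covering reads or by nearly none. Parts were grouped, after their values were seen, over the libraries with 10 or more full-length reads covering them. Of the 697 members, 427 had a share of 90% or more in every such library and 245 had 10% or less in every one. The remaining 25, from 23 genes, are called variable here. By position, 11 members were the first part of their gene, 138 the last and 548 lay between, which is called internal.

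**Figure D1:**
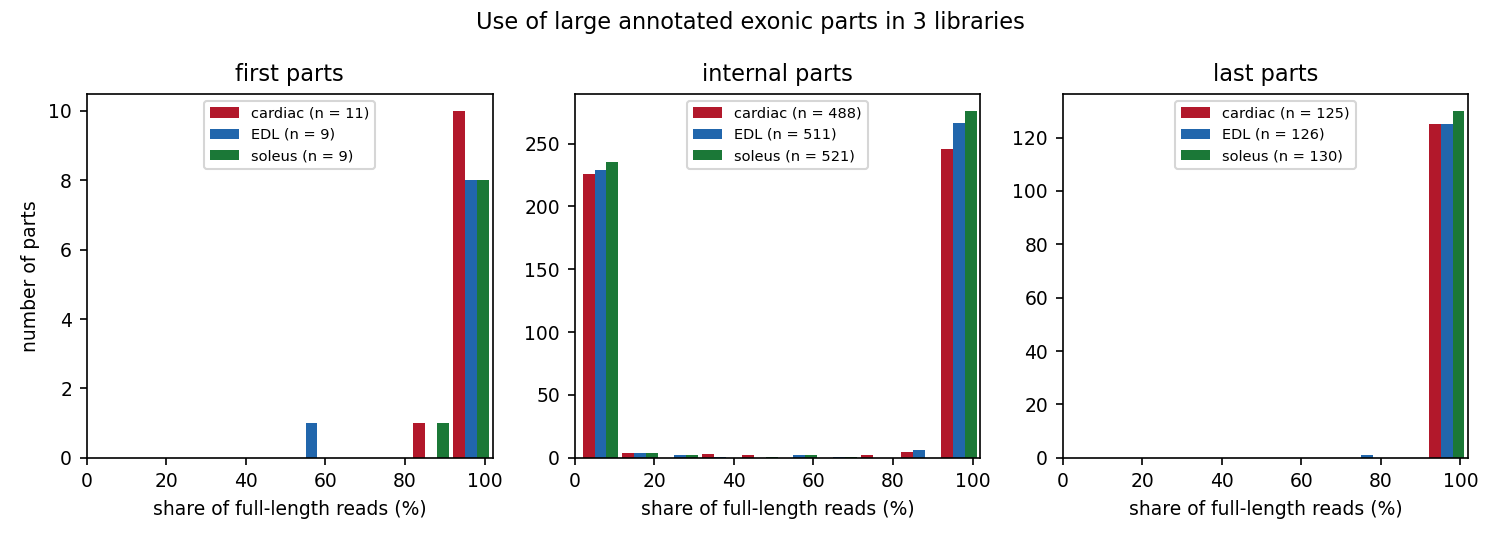
Number of parts (vertical axis) by share of covering full-length reads that hold the part (horizontal axis, %, in steps of 10), for first, internal and last parts in the cardiac, EDL and soleus libraries, where 10 or more full-length reads covered the part. Internal parts pile up at both ends in all 3 libraries, with 10 to 15 parts between 10% and 90%, while last parts sit at 90% or more, with 1 exception in EDL.

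Last parts were the longest and the most evenly held. Their median length was 2310 nt, against 876.5 nt for internal parts. The share was 90% or more for 137 of the 138, and the exception was part 59 of Usp9x. The longest were Tnrc6b part 25 (11998 nt) and Hook3 part 1 (10231 nt). All 20, 42 and 25 reads covering the Tnrc6b part in the cardiac, EDL and soleus libraries held it. Tnrc6b encodes a scaffold of microRNA-guided silencing. All 19, 94 and 56 reads held that of Hook3, whose protein links cargo to the dynein motor. Rlim, Cds2 and Zyg11b followed at 6881, 6722 and 6471 nt, with every covering read holding the part in each library. How a read comes to count as covering a last part is not given in detail. A high share here thus does not say how many molecules ended earlier.

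Read numbers over the last part were therefore compared with those over the part joined directly upstream, for the 49 last members that have one. Members need 20 consensus reads over the last part itself. Genes whose last part few reads covered are thus left out of the counts that follow, and some are given under the other observations. With 10 or more full-length reads upstream, the last part had 90% to 110% of the upstream coverage for 38 of 43 members in the cardiac library, 38 of 43 in EDL and 44 of 48 in soleus. Ccdc50 part 18 lay above 110% in EDL, with 195 reads against 167 upstream. Trip12 part 1 (3075 nt) stood lowest. Trip12 encodes a ubiquitin ligase. Its last part was covered by 13 reads against 88 upstream in the cardiac library, 31 against 127 in EDL and 20 against 123 in soleus. That is 14.8%, 24.4% and 16.3%, so fewer reads covered the last part than the part before it in each library. The consensus reads gave 25%, 40.8% and 31.9%.
Abcc9 encodes the sulphonylurea receptor of the ATP-sensitive potassium channel in heart and muscle. Its last part (1269 nt) was covered by 13 of 30, 54 of 72 and 77 of 101 reads in the cardiac, EDL and soleus libraries, or 43.3%, 75% and 76.2%. Zfyve16 part 1 stood at 66.3%, 71.9% and 64.6%, and Ubr3 part 61 at 82.6%, 86.3% and 77.3%. The Abcc9 value was lowest in the cardiac library, on 30 upstream reads, and no test was made of these ratios.

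**Figure D2:**
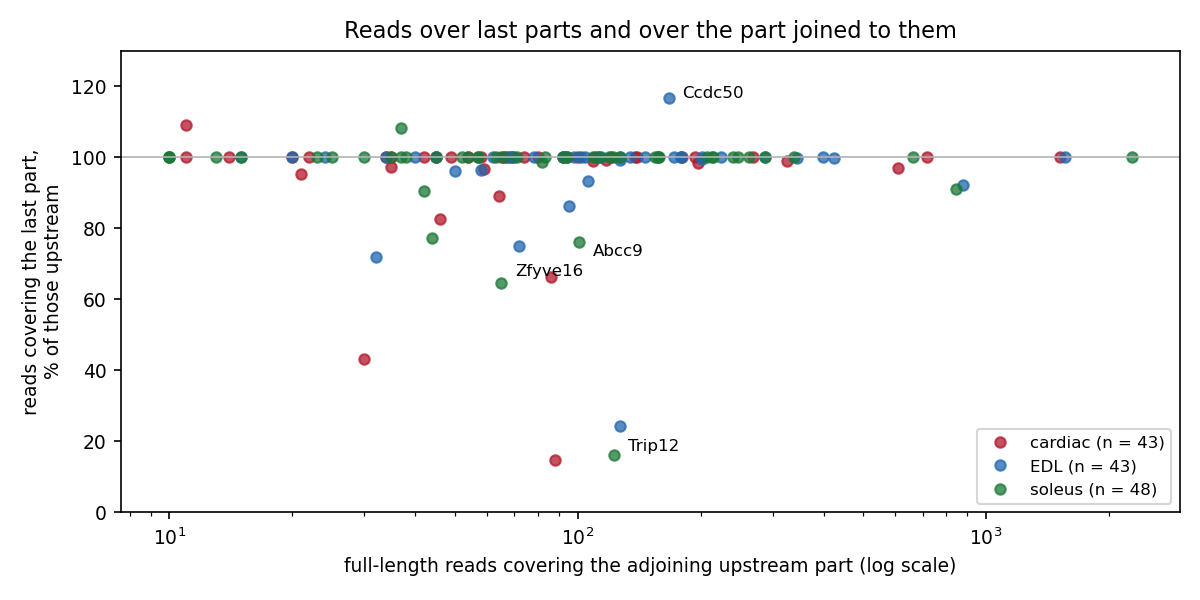
Full-length reads covering a last part as a percentage of those covering the part joined upstream (vertical axis), against the upstream read number (horizontal axis, log scale), for members with 10 or more upstream reads in the cardiac, EDL and soleus libraries. Most points lie at 100%, while Trip12 lies between 14.8% and 24.4% in all 3 libraries.

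First parts were few and shorter. Of 11, 10 were held by 90% or more of reads in each measured library. The longest was part 11 of Slc8a1 (1799 nt), wholly coding, which carries much of the cardiac sodium-calcium exchanger. All 308, 10 and 3 reads covering it held it. Part 1 of Gm10435 (1226 nt) was covered by 138 reads in the cardiac library and by none in EDL or soleus, and overlaps a part of another gene. Ppp1r3a part 4 and Igfbp5 part 10 were held by every covering read. Nup153 part 30 (581 nt), the start of a nuclear pore protein gene, was the variable one. Its share was 87.5% (14 of 16 reads) in cardiac, 55% (33 of 60) in EDL and 85.7% (18 of 21) in soleus. The intervals overlap, and no pair was called.

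Internal parts divided by what the annotation says of them. Of the 113 internal members that lie wholly in coding sequence, 103 were held by 90% or more of reads, 9 were variable and 1 was low. Of the 187 found only in transcripts annotated as retained introns, 184 were low, 3 were variable and none was high. Among 88 internal members in the UTRs of coding transcripts, 77 were high. Of the 128 that are partly coding, 95 were high, 7 variable and 26 low. The position names only the order along the gene, and 299 of the 548 internal members lie in an exon that is the last one of each annotated transcript holding them.

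**Figure D3:**
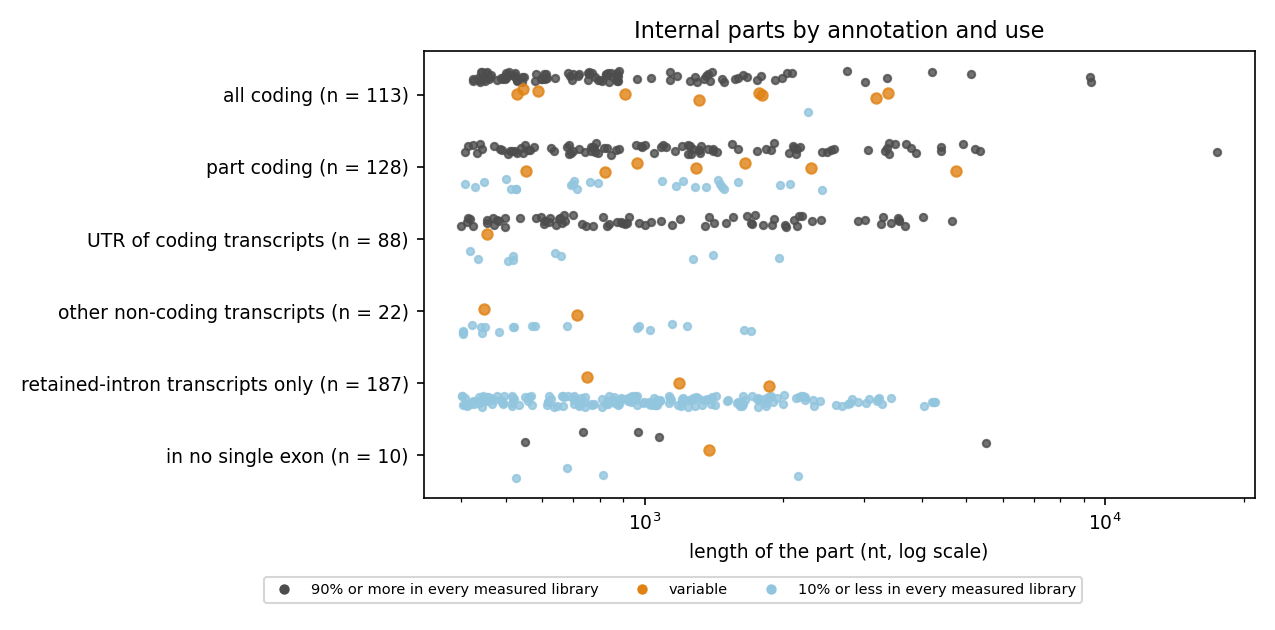
Length of each internal part (horizontal axis, nt, log scale) by annotation (rows) and use, where dark points are parts at 90% or more in every measured library, pale points those at 10% or less and orange points the 23 variable ones. Points are spread vertically only for legibility. Wholly coding parts were mostly high at every length up to 9310 nt, while parts found only in retained-intron transcripts were low or variable, up to 4269 nt.

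Of the 10 longest internal parts, all but that of Kif1b were held by every covering read. Ahnak part 5, at chr19:9001699-9019195 on the + strand, has 17497 nt, of which 16623 are coding. It encodes nearly all of a giant scaffold protein of the cell membrane. All 170 cardiac, 118 EDL and 66 soleus reads that covered it held it. The labelled size selection ends at 10 kb, below the length of this part, and the definition of a covering read is not given in enough detail to say how much of the part each read spans.
Cmya5 part 12, of 9310 nt, encodes most of myospryn, a protein of the costamere and Z-disc. All 271, 1027 and 721 covering reads held it. Xirp2 part 7 has 9265 nt and carries the actin-binding Xin repeats. All 93, 485 and 418 reads held it, so neither exon was seen to be skipped among the molecules selected for 5 to 10 kb. A molecule without so long an exon could fall below that selection. These shares therefore do not show how often either exon is skipped.
Tacc2 part 5 (5121 nt, coding) was held by all 8, 16 and 35 reads, although 4 annotated transcripts leave it out. The same limit of the size selection applies to this part. The remaining parts of this length were mostly ends of genes. They were Zak part 21, Zfx part 2, Rbfox2 part 2, Otud4 part 32 and Nebl part 2, from 4640 to 5514 nt, and each was held by every covering read. Kif1b part 40 (4750 nt) is described below.

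The low internal parts included the most deeply read members of all. Part 25 of Myh7, the slow and cardiac β-myosin heavy chain, was held by 0 of 317, 0 of 55 and 0 of 28721 reads in the cardiac, EDL and soleus libraries. Part 17 of the same gene was held by 1 of the 28721 soleus reads. Part 6 of Myh2, the fast 2A myosin, was held by 0 of 5, 0 of 254 and 0 of 6838. All 3 are annotated only in retained-intron transcripts.
Nedd4, a ubiquitin ligase, had 5 low members. Its parts 11 and 42 were at 0 of at least 1253 reads in each library, and its part 22 was held by 2 of 1517, 7 of 1567 and 2 of 2274. Parts 26, 28 and 30 of the deubiquitinase gene Usp47 were at 0 of 561, 1332 and 1612. Part 16 of Il6st was at 0 of 560, 1201 and 978, and part 22 of Zfp106 at 0 of 604, 874 and 839. Il6st encodes the shared receptor of the interleukin-6 family. A count of 0 allows a share of up to 3 counts of the total, which for Myh7 part 25 is 0.946% in cardiac, 5.45% in EDL and 0.0104% in soleus. For the Clip1 part below it is 2.03% in EDL and 0.671% in soleus. These limits take each full-length read as independent, which reads of the same consensus read are not. Only 42, 18 and 432 consensus reads covered Myh7 part 25 in the cardiac, EDL and soleus libraries. The limits printed here are thus too tight.
Part 26 of Clip1 was the only wholly coding internal member that was low. Clip1 encodes a protein that binds growing microtubule ends. This exon of 2268 nt, at chr5:123613068-123615335 on the − strand, was held by 1 of 105 cardiac, 0 of 148 EDL and 0 of 447 soleus reads. The only annotated coding transcript with it is set against 7 without it, and nearly all reads of these muscles left it out.

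The genes with the most members show both ends within 1 gene. Clasp1, a microtubule-stabilising protein, had 11. Its parts 91 and 93 in the 3′ UTR were held by all 195, 10 and 23 reads. Its other 9, all annotated only in retained-intron transcripts, were held by none. Clcn3, a chloride-proton exchanger of endosomes, had 10, of which 4 were high, 5 low and 1 variable. The variable one, part 26 (454 nt, 5′ UTR of an alternative first exon), was held by 14.7%, 29.5% and 19.5% of reads. In Mbnl1, the muscleblind splicing regulator, 3 of 9 were high and 6 low, and the low ones were held by at most 1 read in a library.
Etl4 and Nisch had 8 each, as did 4 other genes, and were taken in alphabetical order. In Etl4, 4 were high and 4 low. In Nisch, 2 were high and 6 were low, at 0 to 2 reads of 99 to 291.

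The gene groups below were chosen with earlier results of these data known and are described by counts. Among Z-disc, Xin repeat and filamin proteins, all 8 members of 4 genes were high. The Flnc part 23 of 598 nt, for example, was held by 116 of 117, 180 of 180 and 1161 of 1162 reads. Of 32 members in the costamere and membrane skeleton group, 21 were high, 3 variable and 8 low. The 2 variable ones besides Sptbn1 were in Plec and Synm. Giant and large sarcomere proteins had 14 members, of which 6 were high, 1 variable and 7 low. Part 40 of Myom1, an M-band protein, was held by all 1886, 2489 and 2495 reads.
Calcium handling genes had 16 members, of which 9 were high and 3 variable. Of the 10 in ion channel genes, 9 were high. Transcription factor genes had 12 high and 7 low among 19, and splicing and RNA regulators 8 high and 6 low among 14. Among 48 members in microtubule, motor and trafficking genes, 20 were high, 3 variable and 25 low. LIM and actin-binding adaptors had 10 high and 8 low of 18. Metabolic genes had 14 high and 10 low of 24, heart-restricted genes 12 high of 17, and ubiquitin ligases and deubiquitinases 10 high of 19. Vessel and matrix genes had 9 low of 13, where 4 in Lama4 and 3 in Kdr were at 0. Actin assembly regulators had 5 high of 9, and the single solute carrier member, in Slc8a1, was high.

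Low use was found in 35.2% of the large members, in 8.64% of 5842 annotated parts of 52 to 399 nt and in 19.3% of 1052 parts of 3 to 51 nt. Variable use was found in 3.59%, 2.76% and 9.03% in the same order. Between cardiac and EDL 0.9% of the large parts were called, by the rule given below, against 0.736% and 2.96% of the mid-size and small ones. These are descriptions of the same libraries, with no test.

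Few large parts differed between libraries. A part was called when Fisher's exact test (two-sided, on full-length read counts) had a Benjamini-Hochberg adjusted p under 0.05 over all parts tested and the shares differed by 20 percentage points or more. Between the cardiac and EDL libraries 6 of 667 members were called (0.9%), where 3.1% of all 8127 parts tested were. Between cardiac and soleus 4 of 667 were called (0.6%), against 2.65% of 8100. Between EDL and soleus 3 of 670 were called (0.448%), against 0.791% of 8341. Much of the background came from the 3 excluded genes, and without them 1.32%, 1.03% and 0.596% of parts were called. The members' share was thus below or near the background in each pair.
On consensus reads, 3, 3 and 0 members were called, where the backgrounds were 1.98%, 1.77% and 0.228%, or 0.514%, 0.436% and 0.0518% without the 3 excluded genes. At an unadjusted p under 0.05, 1 of 670 members passed on consensus reads and 18 on full-length reads between EDL and soleus. Of all 8341 parts, 55 and 344 did. Between cardiac and EDL, 8 and 19 of 667 members passed, against 277 and 482 of 8127 parts. Between cardiac and soleus, 7 and 18 of 667 passed, against 273 and 497 of 8100. Calls on both read counts were 3, 3 and 0, with backgrounds of 1.94%, 1.74% and 0.204%. The calls on both were the same 3 parts in each comparison with the cardiac library, and those in Map4 and Sptbn1 are described below. Those comparisons share the cardiac library.

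Map4 part 16 was held less often in the cardiac library. Map4 is the main microtubule-associated protein outside neurons, and this exon of 3180 nt, at chr9:110037288-110040467 on the + strand, is wholly coding and adds 1060 codons. It was held by 11 of 30 cardiac reads, 53 of 59 EDL reads and 92 of 99 soleus reads. The shares were 36.7% (19.9 to 56.1), 89.8% (79.2 to 96.2) and 92.9% (86.0 to 97.1). The cardiac interval lay below both others, which overlapped. The difference, cardiac minus EDL, was -53.2 points (interval -68.9 to -32.6, Fisher's exact test, adjusted p = 1.23e-05). Cardiac minus soleus was -56.3 points (-71.5 to -37.2, Fisher's exact test, adjusted p = 3.8e-08). The consensus shares of 50% (11 of 22), 91.1% (41 of 45) and 91% (61 of 67) gave adjusted p = 0.0174 and 0.00633 by Fisher's exact test.
Map4 part 14, a coding exon of 1134 nt, was held by all 21, 23 and 39 covering reads.

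Sptbn1 part 10 was held more often in the cardiac library. Sptbn1 encodes the βII spectrin of the membrane skeleton. The part has 2304 nt at chr11:30106785-30109088 on the − strand, of which 84 are coding, and belongs to an annotated last exon that ends a shorter form of the protein. The reads that held it were 86 of 193 cardiac, 7 of 62 EDL and 12 of 69 soleus. The shares were 44.6% (37.4 to 51.9), 11.3% (4.66 to 21.9) and 17.4% (9.32 to 28.4). The cardiac interval lay above both others. The difference was 33.3 points from EDL (21 to 42.3, Fisher's exact test, adjusted p = 3.05e-05) and 27.2 from soleus (14.6 to 37.2, Fisher's exact test, adjusted p = 0.00151). Consensus shares were higher in every library, at 62.4%, 20% and 25%, with adjusted p = 0.0023 and 0.0167 by Fisher's exact test.
Part 2, of 1319 nt and further towards the 3′ end, was held by all 116, 56 and 58 reads that covered it.

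**Figure D4:**
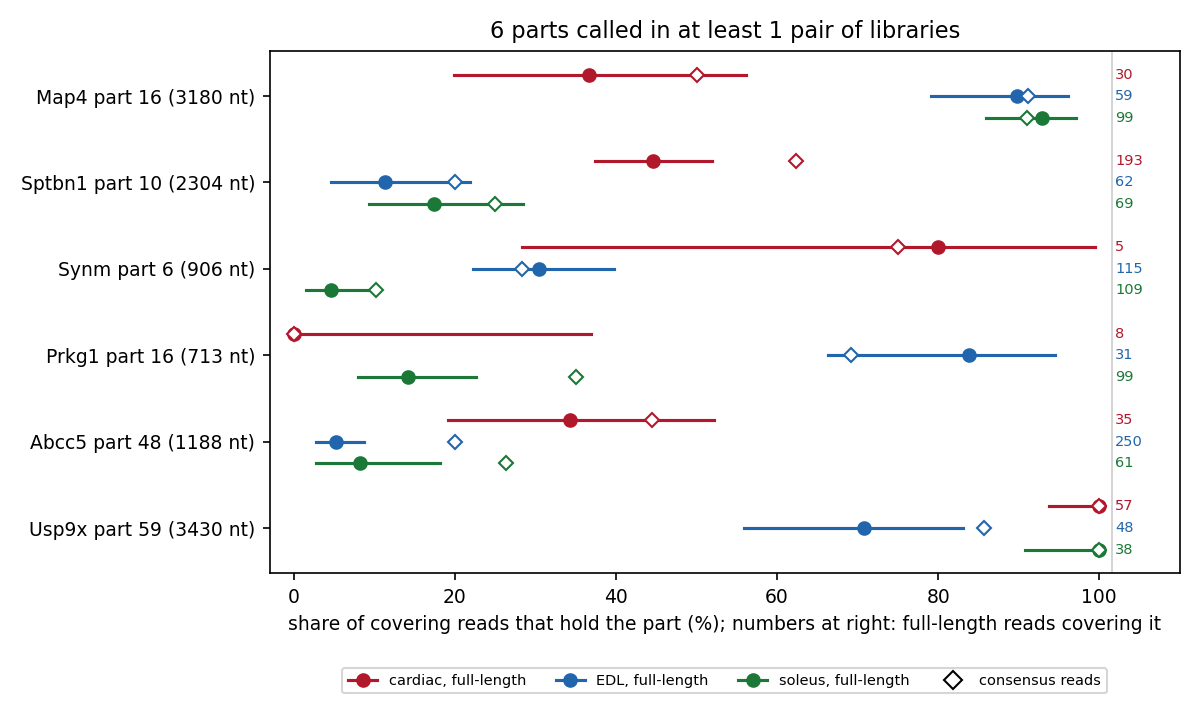
Share of covering reads that hold each of 6 called parts (horizontal axis, %), with filled points and 95% Clopper-Pearson intervals for full-length reads, open diamonds for consensus reads, and the number of covering full-length reads at the right. The cardiac interval is separate from both others for Map4, Sptbn1 and Abcc5, though Abcc5 was not called between cardiac and soleus. The cardiac values of Synm and Prkg1 rest on 5 and 8 reads.

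A further 4 parts were called on full-length reads alone. Synm part 6 lies in synemin, an intermediate filament protein that joins desmin to the costamere. It has 906 nt at chr7:67733554-67734459 on the − strand, is wholly coding and adds 302 codons. Of the covering reads, 4 of 5 cardiac, 35 of 115 EDL and 5 of 109 soleus reads held it. The EDL share of 30.4% (22.2 to 39.7) lay above the soleus share of 4.59% (1.51 to 10.4). The difference was 25.8 points (16.3 to 35.1, Fisher's exact test, adjusted p = 3.12e-05). The cardiac share of 80% rests on 5 reads from 4 consensus reads (28.4 to 99.5), and was 75.4 points above soleus (32.6 to 92, Fisher's exact test, adjusted p = 0.0029). Consensus shares were 75%, 28.3% and 10.2%, in the same order, with adjusted p = 0.328 for cardiac and soleus and 1 for EDL and soleus by Fisher's exact test. The neighbouring coding parts 7 and 8, of 1484 and 963 nt, were held by every covering read.

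Prkg1 part 16 was held by most EDL reads. Prkg1 encodes a cGMP-dependent protein kinase. The part, of 713 nt at chr19:30624779-30625491 on the − strand, lies in the first exon of a non-coding transcript. The part was found in 0 of 8 cardiac, 26 of 31 EDL and 14 of 99 soleus reads, or 0%, 83.9% and 14.1%. EDL was 69.7 points above soleus (51.3 to 80.3, Fisher's exact test, adjusted p = 2.97e-10), and cardiac 83.9 below EDL (-92.9 to -47.5, Fisher's exact test, adjusted p = 0.000697). On consensus reads it was held by 0 of 7, 9 of 13 and 7 of 20. The adjusted p was then 1 for EDL and soleus and 0.207 for cardiac and EDL by Fisher's exact test. Its largest consensus coverage is 20, the lowest that the rule for members admits.

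Abcc5 part 48 (1188 nt, chr16:20401072-20402259, − strand) is annotated only in a retained-intron transcript of a cyclic nucleotide exporter. In cardiac, EDL and soleus it was found in 12 of 35, 13 of 250 and 5 of 61 reads, or 34.3%, 5.2% and 8.2%. The cardiac share was 29.1 points above EDL (15.2 to 45.8, Fisher's exact test, adjusted p = 0.000115). The consensus shares of 44.4%, 20% and 26.3% gave an adjusted p of 1 by Fisher's exact test.
Usp9x part 59 (3430 nt, chrX:13169899-13173328, + strand) is the 3′ UTR end of a deubiquitinase gene. Holding reads were all 57 cardiac and all 38 soleus reads and 34 of 48 EDL reads, or 70.8% (55.9 to 83.0). EDL was 29.2 points below each of the others (Fisher's exact test, adjusted p = 0.00019 against cardiac and 0.0163 against soleus). On consensus reads EDL stood at 85.7% (24 of 28), and the adjusted p was 1 by Fisher's exact test in both pairs. Part 58, joined upstream, was held by 64 of 64, 42 of 50 and 42 of 42.

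The authors' deposited list of parts that differ by 20 points holds 8 of the members, and 6 of these were kept in their list after a check by eye. Of the 7 parts called here, 6 are in the first list and 5 in the second. Prkg1 part 16 is in neither, and its largest consensus coverage of 20 is below the 30 consensus reads the authors required. Abcc5 part 48 is in the first alone. Stat5b part 21 is in the first list and was not called here, since 2 of 3 cardiac reads held it against 677 of 679 and 143 of 144. Fam135a part 20 is in both lists and was not called here. It was held by 13 of 62 EDL and 26 of 61 soleus reads, an EDL minus soleus difference of -21.7 points (Fisher's exact test, adjusted p = 0.448).

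The other 18 variable parts were called in no pair, and several divide known protein forms. Dsp part 27 (1797 nt, chr13:38191859-38193655, + strand) lies in the rod-coding exon of desmoplakin, the desmosome protein whose long and short forms differ in the rod. It was held by 570 of 671 cardiac reads, 84.9% (82.0 to 87.6), and no EDL or soleus read covered it. On consensus reads the share was 72.3% (86 of 119). Molecules with and without the part were both seen in the cardiac library, among those selected for 5 to 10 kb.
Plec part 5 (3381 nt) is the rod exon of plectin, a linker of intermediate filaments. The part was in 7 of 10, 36 of 39 and 39 of 40 reads, or 70%, 92.3% and 97.5%. The cardiac interval of 34.8 to 93.3 overlaps both others. The neighbouring part 4 of Plec (3006 nt) was held by 79 of 79, 287 of 287 and 412 of 413.

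Kif1b part 40 lay just under the threshold. Kif1b is a kinesin motor whose known forms carry different tails, and this last exon of 4750 nt (chr4:149233734-149238483, − strand) has 1473 coding bases. It was held by 66 of 93, 307 of 368 and 430 of 473 reads, or 71%, 83.4% and 90.9%. The cardiac share was 19.9 points below soleus (-30.1 to -11.2, Fisher's exact test, adjusted p = 5.25e-05), short of the 20 points required. Consensus shares of 71.8%, 71.8% and 78.8% were closer together, with an adjusted p of 1 by Fisher's exact test.
Srl part 10 (1311 nt) is the coding exon that separates the long form of sarcalumenin, a calcium-binding protein of the sarcoplasmic reticulum, from its shorter form. Reads with it were 53 of 60, 277 of 283 and 59 of 63, or 88.3%, 97.9% and 93.7%. On consensus reads the shares were 64.3%, 83.3% and 75%, lower in each library. The limit of the size selection applies to the shares of the Map4, Dsp, Plec, Kif1b and Srl parts as well.

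Zfp106 part 33 differed most between the read counts in the cardiac and soleus libraries, and Ogt part 15 did in EDL, by 19.8 points. Zfp106 is a zinc finger protein that binds RNA, and the part is 1776 coding nt. It was held by 83 of 176, 141 of 225 and 170 of 298 full-length reads, or 47.2%, 62.7% and 57%. On consensus reads it was held by 46 of 55, 56 of 73 and 60 of 74, or 83.6%, 76.7% and 81.1%. The cardiac library was lowest on the first count and highest on the second. No pair was called on either. Over all measured members the median difference between the counts was 0, and it passed 10 points for 9, 14 and 10 members in the cardiac, EDL and soleus libraries.
Myo18a part 20 (528 nt), in an unconventional myosin gene, was held by 86.7%, 97.7% and 100% of reads. The cardiac library was 11 points below EDL (Fisher's exact test, adjusted p = 0.00132) and 13.3 below soleus (adjusted p = 0.0347), both under the 20 points. Fam135a part 20 (588 nt) was held by 33.3%, 21% and 42.6%, and Amot part 16 (545 nt) by 40%, 51.9% and 23.8%, on 5 reads in the cardiac library.
Dab2ip part 36 was held by 66.7%, 87.5% and 59.5%, and Ppp1r12b part 18 by 13.2%, 17.6% and 29.1%. The order of the libraries differed from part to part. In Atp2a2, the slow and cardiac calcium pump, parts 3 and 4 were both held by 14 of 17 cardiac and 30 of 31 soleus reads and share those reads. Gm14420 part 5, Ccdc50 part 15 and Tacc2 part 16 varied around the 90% or 10% limits of the classes. Gm14420 lies in a cluster of closely similar zinc finger genes, so its reads are uncertain.

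**Figure D5:**
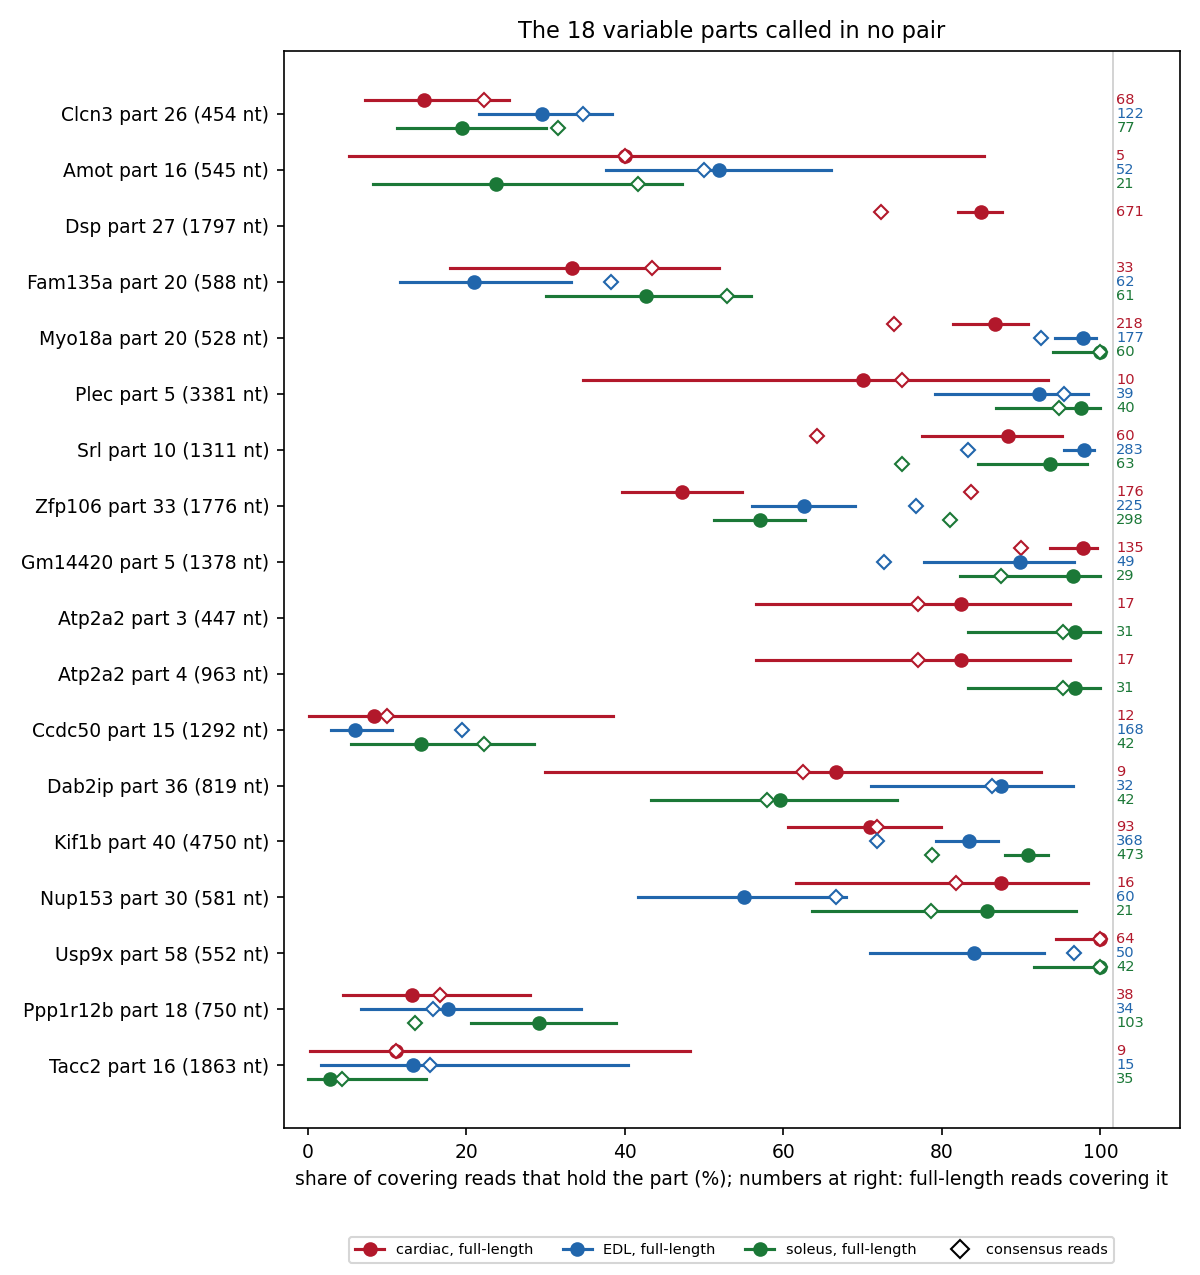
Share of covering reads that hold each of the 18 variable parts called in no pair (horizontal axis, %), with filled points and 95% Clopper-Pearson intervals for full-length reads, open diamonds for consensus reads, and the number of covering full-length reads at the right. Most intervals of the 3 libraries overlap, and the diamonds of Zfp106 lie outside the intervals of their own library.

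Among the 9 variable wholly coding internal members, all of which at least 1 annotated transcript leaves out, 8 have a length that is a multiple of 3. They are the parts of Map4, Synm, Dsp, Plec, Srl, Zfp106, Myo18a and Fam135a, from 176 to 1127 codons. The exception is Amot part 16, of 545 nt. Not all of these are whole exons, and 3 are whole internal coding exons in the annotation. Among the 64 high members that are whole internal coding exons, 25 have a length that is a multiple of 3, and 3 are left out by an annotated transcript. Most of the 64 are thus unlike the 9 variable parts. Of whole exons that an annotated transcript leaves out, 3 of 3 variable, 2 of 3 high and 1 of 1 low have such a length.

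Values of parts on either side of the limits of the rule follow, with no test. Just inside 400 nt were Mbnl1 part 21 and Phka1 part 35 (both 400 nt) and Ehbp1l1 part 21 (401 nt), all held by 98.2% or more of reads in each library. Just outside were Opa1 part 32 (399 nt), held by 1 of 717, 0 of 399 and 0 of 263, and Hook1 part 37 (398 nt), by 2.48%, 33% and 39%. Mbnl1 part 16 (396 nt) was held by 41.2%, 66.7% and 50%. At the coverage limit, 46 members had exactly 20 consensus reads and 59 large annotated parts had 19. Lamb1 part 11, Focad part 6 and Gtf2a1 part 1 lay just inside, and Fzd4 part 1, Ckap5 part 58 and Gpcpd1 part 3 just outside. Gpcpd1 part 3 was held by 7.41%, 0.893% and 0%, and each of the other 5 by all or by none of the covering reads.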

How the data were processed

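Iso-Seq libraries of 3 mouse muscles were analysed from the authors' deposited counts of consensus reads and full-length reads that cover each exonic part and that hold it. Per the file headers these counts are whole numbers with no normalization, and the deposited protocol describes a match as a read that holds the exon's sequence. The submitters' processing notes name STAR and the builds GRCm38 and mm10. The authors' deposited fractions, the share of covering reads that match, were recomputed here from the counts rather than used. Gene counts of the same kind served only to check the tissues against marker genes.

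From these counts the share of each part was computed per library. For each pair of libraries, Fisher's exact test (two-sided, scipy 1.17.1) was run per part, on the whole table of parts with 20 or more consensus reads in some library and at least 1 full-length read in both. The p-values were adjusted by Benjamini-Hochberg. The script was tested on simulated data. Parts were matched by coordinates to GENCODE M21 (GRCm38): 672 of 697 lay inside a single annotated exon, 265 had the bounds of one, and 15, in 6 genes, had a gene name not found there. Named parts are those called, the longest, the lowest internal ones (ties by read number), the most covered, those at the thresholds, and all members of the 5 genes with most.

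The members, gene lists and tests were chosen with earlier results of these data known. The classes at 10% and 90%, the annotation groups, the coverage ratio of last parts, the call on both read counts and the background without Ttn, Neb and Nrap were chosen after seeing the data. The rule used length and coverage, not the share. Of the members, 312 had fewer than the 30 consensus reads the authors required. PCR copies and full-length reads of 1 consensus read are not independent molecules. Results that need certain items are not reported here.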

Additional observations from a re-analysis of the deposited data

How the results depend on the processing

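Of 33 recounts of the calls in the 3 pairs, 25 stayed within 1.5 times and 8 did not. On consensus reads the 6 calls between cardiac and EDL became 3 and the 3 between EDL and soleus became 0. The call on both read counts, added after seeing the data, also gave 3 and 0. With a difference of 30 points 1 call was left between EDL and soleus, and with Bonferroni adjustment 2 were left between cardiac and soleus. With 30 consensus reads required, Abcc5 part 48 was also called between cardiac and soleus. A minimum length of 300 nt gave 10 calls between cardiac and EDL and 5 between EDL and soleus, since it admits more parts. On consensus reads the 13 called differences kept their direction, and 7 of them no longer passed. The other settings change the test or its threshold and leave the difference as it is, and 9 of 48 values under them no longer passed. The share on consensus reads lay outside the interval of the full-length share for 25 of 66 values of variable parts. No paired analysis was possible because there is 1 library per tissue. Leaving out a replicate was not possible for the same reason. The number of consensus reads, with medians of 22 to 25 per member, limits what can be told apart.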

Other observations

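Some last parts fell under the 20 consensus reads for members, while the part joined upstream had 20 or more. A lower coverage of the last part is thus partly set by this choice, and only the size of the ratio is described. The parts were picked after their values were seen. Il6st encodes the shared signalling receptor of the interleukin-6 family. Its last part 35 (3226 nt) was covered by 5, 21 and 10 full-length reads in the cardiac, EDL and soleus libraries, where part 34 upstream had 562, 1204 and 981. The ratio was 0.89%, 1.74% and 1.02%, and on consensus reads 14.3%, 17.3% and 14.6%, so the size of the ratio depends on the read count while the order of the parts does not. The last 1429 nt of Eif4g3, a translation initiation factor gene, were covered by 0 reads in every library, where the upstream part had 1, 31 and 16. Rapgef1 part 40 (615 nt) had 1, 0 and 1 against 24, 30 and 44.

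Atp8a1 part 1 (1021 nt), the end of a phospholipid flippase gene, differed between libraries, with 0 of 25 in cardiac, 36 of 90 in EDL and 1 of 10 in soleus. Arhgap29 part 43 had 17 of 64, 6 of 33 and 1 of 15, and Limch1 part 65 had 40 of 46, 12 of 15 and 22 of 40. None of these ratios was tested.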
